A study of Mus musculus with 3 samples.

Results

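The cyclin-dependent kinase inhibitors are the 7 genes Cdkn1a, Cdkn1b and Cdkn1c of the Cip/Kip family and Cdkn2a, Cdkn2b, Cdkn2c and Cdkn2d of the Ink4 family, among 16428 genes named in the peak lists. Their peaks were taken in 2 ways, as peaks that name a member as the closest gene and as peaks centred within 50 kb of a member's transcription start site (TSS). This gave 90 of 98086 Smad3 peaks and 51 of 63154 JMJD3 peaks. Of these, 43 Smad3 and 28 JMJD3 peaks named a member, and 47 Smad3 and 23 JMJD3 peaks lay in a 50 kb window but named another gene.

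The peaks are those of ChIP-seq, in which DNA bound by a protein is pulled down with an antibody and sequenced, for Smad3 and for JMJD3. The cells were wild type mouse neural stem cells from the cerebral cortex of e12.5 embryos, grown with EGF at 20 ng/ml and FGF at 10 ng/ml. Both libraries came from cells given TGFb at 5 ng/ml, for 30 minutes per the series text. The labels also name an input library treated with TGFb, which was not analysed here. There was 1 library per antibody and none without TGFb, so no value has a replicate error, no difference was tested, and no value shows an effect of TGFb.

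Cyclin-dependent kinase inhibitors hold cells in G1. The Ink4 proteins bind CDK4 and CDK6 and keep them from their D-type cyclins, and the Cip/Kip proteins bind whole cyclin and CDK complexes, above all those of CDK2. TGF-beta halts the cycle of many cell types partly through Smad-driven induction of Cdkn1a (p21) and Cdkn2b (p15). JMJD3, the product of Kdm6b, removes methyl groups from H3K27, and the Cdkn2a locus is a classic target of Polycomb silencing through that mark. In neural stem cells these inhibitors limit self-renewal.

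The labelled cell type was compared with marker genes, although a promoter peak does not measure expression. Of 10 neural stem cell marker genes, Smad3 was listed at the promoters of 10 and JMJD3 at 9. Of 4 microglial markers, 1 (Tmem119) had a JMJD3 promoter peak and 0 had one of Smad3. Both factors were present at 1 of 4 endothelial markers (Kdr) and at 3 of 5 neuronal markers. Neither factor had a promoter peak at any of 3 oligodendrocyte markers. For comparison, 55.0% of 20953 protein-coding genes had a Smad3 promoter peak and 43.3% had one of JMJD3. The neuronal counts were not below those shares. The files give no height, enrichment or p-value, so what can be described of a peak is the width of its region, which need not follow how strongly the factor bound. A region was made by joining peaks of the same list at most 10 bp apart.

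All 7 inhibitor genes had both a Smad3 and a JMJD3 peak at a promoter, meaning a peak that names the gene and is centred within 1 kb of its TSS. Over 20953 protein-coding genes the shares were 55.0% for Smad3, 43.3% for JMJD3 and 41.9% for both. These genes come from a later annotation than that of the files, and the lists name 15353 of them. A gene that the files' annotation lacks counts as without a peak, which lowers the shares, while all 7 members are named. Wider windows hold the same peaks and so cannot lower the count of members, and the shares of coding genes rose in them to 57.5%, 45.6% and 44.1% at 2.5 kb and 60.1%, 48.0% and 46.2% at 5 kb. The Smad3 regions ran from 140 bp at Cdkn1c to 2940 bp at Cdkn1a, with a median of 861 bp against 760 bp over all 11524 Smad3-bound genes. The JMJD3 regions ran from 640 bp at Cdkn2a to 1420 bp at Cdkn2d, with a median of 740 bp against 860 bp over 9077 JMJD3-bound genes. When only the 50% of peaks with the wider regions were kept, 4 members had Smad3 (Cdkn1a, Cdkn1b, Cdkn2a and Cdkn2d), 3 had JMJD3 (Cdkn1b, Cdkn2b and Cdkn2d) and 2 had both. The shares of all coding genes were then 39.8%, 28.1% and 25.1%.

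**Figure D1:**
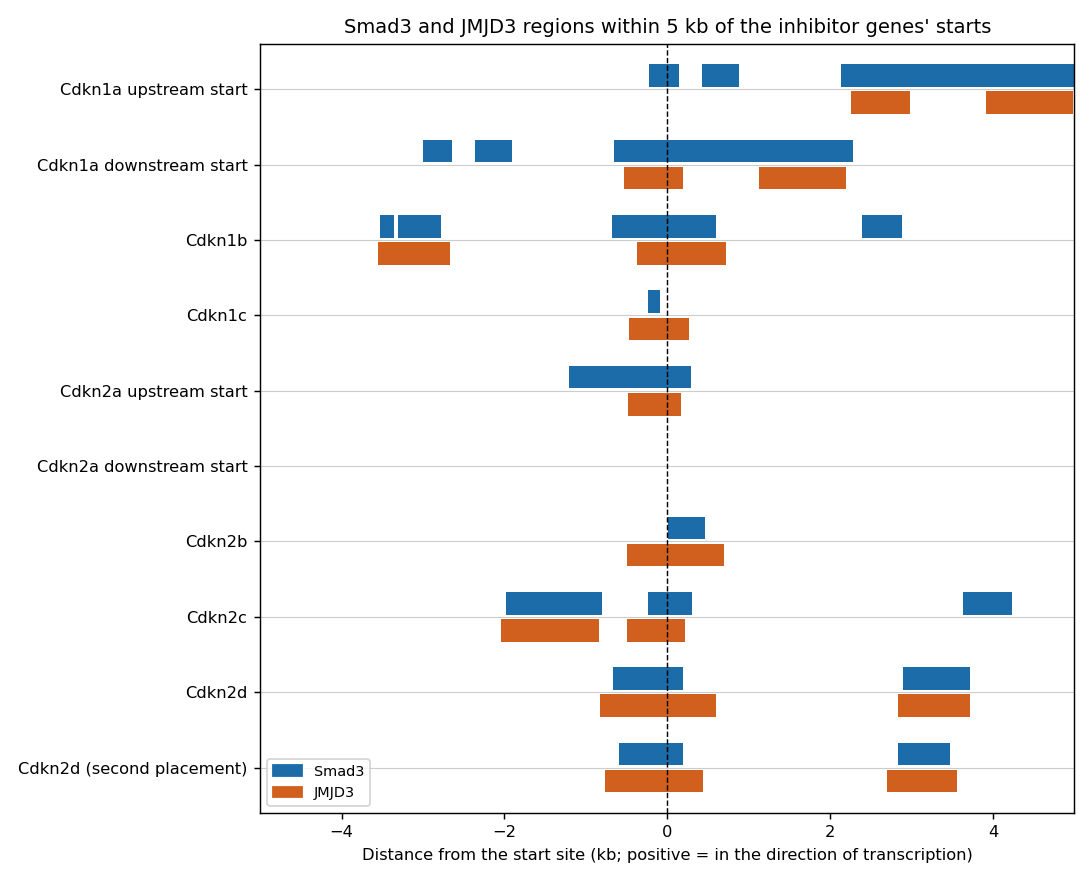
Joined Smad3 (blue) and JMJD3 (orange) regions within 5 kb of each listed start of the 7 genes. The x axis is the distance from the start in kb, positive in the direction of transcription, and the dashed line marks the start. Within 1 kb the upstream start of Cdkn1a has Smad3 regions only, and the JMJD3 regions to its right are those at the downstream start. The downstream start of Cdkn2a has no region, and every other start has both factors within 1 kb.

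Cdkn1a (Entrez 12575) encodes p21, the Cip/Kip inhibitor induced by p53 and by TGF-beta. The files list 2 starts on chromosome 17, at 29227930 and 29230716, which lie 2786 bp apart. Smad3 was listed at both and JMJD3 at the downstream one alone. At the downstream start the Smad3 region spanned 2940 bp (29230061 to 29233000), from 655 bp before the start to 2284 bp after it, and was made of 7 peaks. Its width was at percentile 99.7 of all Smad3-bound genes. This rests on joining peaks that lie 9 bp apart, since the widest single Smad3 peak at the promoter was 631 bp. Inside it lay a pair of JMJD3 regions, 731 bp over the start (29230181 to 29230911) and 1070 bp within the gene (29231841 to 29232910). Together the JMJD3 regions covered 1801 bp of the Smad3 region, and the stretch between them held Smad3 peaks without JMJD3.

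At the upstream start of Cdkn1a, Smad3 had 1 peak of 360 bp over the start (29227711 to 29228070) and 1 of 460 bp after it (29228351 to 29228810). The nearest JMJD3 peak was centred 2356 bp downstream, at the other start. The sequences before both starts are shown because the factors differ between them. They are the 250 bases before each start from RefSeq on GRCm38.p6, a later build than the files' mm9, at chr17:29090729-29090978 and chr17:29093519-29093768 on the plus strand. On that build the starts lie 2790 bp apart. Capitals mark the Smad box GTCT (or its reverse complement AGAC) and the GC-rich Smad element GGCGC (or GCGCC).
Cdkn1a upstream start: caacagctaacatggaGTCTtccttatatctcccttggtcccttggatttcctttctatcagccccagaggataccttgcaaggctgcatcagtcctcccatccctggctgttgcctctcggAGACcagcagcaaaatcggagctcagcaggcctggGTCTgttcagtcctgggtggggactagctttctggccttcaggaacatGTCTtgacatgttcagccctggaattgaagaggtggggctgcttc
Cdkn1a downstream start: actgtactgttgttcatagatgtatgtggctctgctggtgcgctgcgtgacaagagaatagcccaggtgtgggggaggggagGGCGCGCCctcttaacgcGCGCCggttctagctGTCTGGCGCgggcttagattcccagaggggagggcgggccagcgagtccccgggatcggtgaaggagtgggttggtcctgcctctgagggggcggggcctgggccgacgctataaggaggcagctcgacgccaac
The upstream sequence held 4 matches to GTCT and 0 to GGCGC, and the downstream one held 1 and 4. The base composition differed too, with 54.0% G and C upstream and 64.8% downstream, where the median of 32851 RefSeq promoters was 52.4%. Of those promoters, 82.9% held GTCT and 32.0% held GGCGC in the same 250 bases on either strand, with overlapping matches counted separately. The downstream sequence also held 2 matches to the GC box GGGCGG, which 32.7% of promoters held.

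Cdkn1b (Entrez 12576) encodes p27, the inhibitor that sets cell cycle exit in many progenitors. At its start (chromosome 6, 134870418, plus strand) the 2 factors covered nearly the same ground. The Smad3 region was 1280 bp (134869741 to 134871020, percentile 87.4) and the JMJD3 region 1100 bp (134870041 to 134871140, percentile 73.5). They shared 980 bp, which is 76.6% of the Smad3 region and 89.1% of the JMJD3 region. With only touching peaks joined the Smad3 width fell to 550 bp and the JMJD3 width stayed at 1100 bp. Cdkn1b also had shared peaks outside the promoter. A JMJD3 region of 880 bp about 3 kb upstream held Smad3 regions of 171 and 530 bp, and 8 kb downstream, past the gene's end, regions of 1000 bp (Smad3) and 770 bp (JMJD3) shared 750 bp. Further downstream, 22159 bp from the start, a Smad3 peak of 360 bp lay wholly inside a JMJD3 region of 650 bp, and 1 JMJD3 peak at 25639 bp had no Smad3. The promoter sequence is shown because the joined regions there were of nearly equal width, from chr6:134920151-134920400 of GRCm38.p6 on the plus strand, marked as above.
Cdkn1b: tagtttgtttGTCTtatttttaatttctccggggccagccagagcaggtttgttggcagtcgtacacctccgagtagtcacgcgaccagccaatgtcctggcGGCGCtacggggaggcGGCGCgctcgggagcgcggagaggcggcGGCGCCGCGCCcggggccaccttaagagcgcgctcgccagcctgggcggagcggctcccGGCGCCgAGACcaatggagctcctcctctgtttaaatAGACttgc
It held 3 matches to GTCT, 7 to GGCGC and 1 to GGGCGG, with 64.4% G and C.

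Cdkn1c (Entrez 12577) encodes p57, an inhibitor expressed from the maternal allele in an imprinted cluster. Its Smad3 promoter region was the narrowest of the 7 genes, 1 peak of 140 bp (chromosome 7, 150647051 to 150647190) at percentile 0.0347 of Smad3-bound genes. The JMJD3 region was 740 bp (150646691 to 150647430, percentile 34.6) and enclosed the Smad3 peak. The JMJD3 region ran over the start at 150646955, and the Smad3 peak ended 96 bp before it. Away from the promoter, regions of 570 bp (Smad3) and 440 bp (JMJD3) shared 420 bp at about 32 kb downstream of the start. In the 50 kb window, 1 more Smad3 peak of 180 bp named Slc22a18.

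Cdkn2a and Cdkn2b are neighbours on chromosome 4, both on the minus strand, and share their 50 kb windows. Cdkn2a (Entrez 12578) has an upstream start, which gives p19Arf, a stabiliser of p53, and a downstream start 12427 bp further on, which gives p16Ink4a. Both factors were listed at the Arf start and neither at the Ink4a start. At the Arf start (88940523) the Smad3 region spanned 1500 bp (88940231 to 88941730, percentile 93.1), and the JMJD3 region of 640 bp (88940361 to 88941000, percentile 21.8) lay wholly inside it. Smad3 reached 1207 bp upstream of the start and JMJD3 477 bp. With only touching peaks joined the Smad3 width was 951 bp, still above that of JMJD3. Of the 3 Smad3 peaks in that region, those centred 183 and 793 bp upstream counted as promoter peaks, and the 1 at 1067 bp fell just outside.

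From the Ink4a start (88928096) the nearest Smad3 peak was 12610 bp upstream and the nearest JMJD3 peak 12584 bp upstream, both of them the peaks at the Arf start. No peak of either list lay within the rest of Cdkn2a, and the next peak that named it, 1 of Smad3 with 370 bp and no JMJD3, was centred 64140 bp downstream of the Ink4a start. The sequences before both starts are shown because 1 start had both factors and the other neither. They come from chr4:89294620-89294869 and chr4:89282193-89282442 of GRCm38.p6, given on the minus strand and marked as above, and on that build too the starts lie 12427 bp apart.
Cdkn2a Arf start: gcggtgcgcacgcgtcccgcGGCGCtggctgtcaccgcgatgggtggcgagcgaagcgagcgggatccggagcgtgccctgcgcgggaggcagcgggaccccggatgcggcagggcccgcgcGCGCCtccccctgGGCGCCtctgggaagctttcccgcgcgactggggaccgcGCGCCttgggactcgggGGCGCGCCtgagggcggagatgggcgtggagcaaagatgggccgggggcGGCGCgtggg
Cdkn2a Ink4a start: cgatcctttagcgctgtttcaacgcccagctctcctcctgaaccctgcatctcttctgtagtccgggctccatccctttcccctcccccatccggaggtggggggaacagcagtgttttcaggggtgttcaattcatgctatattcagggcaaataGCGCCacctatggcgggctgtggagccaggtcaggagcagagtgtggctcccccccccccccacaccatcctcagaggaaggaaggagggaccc
Neither sequence held GTCT on either strand. The Arf sequence held 8 matches to GGCGC and 2 to GGGCGG with 78.4% G and C, and the Ink4a sequence 1 and 0 with 60.0%.

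Cdkn2b (Entrez 12579) encodes p15, the Ink4 inhibitor best known as a TGF-beta target. Its start (88956941) lies 16418 bp upstream of the Arf start. Here JMJD3 was the wider, the reverse of the Arf start. The JMJD3 region spanned 1200 bp over the start (88956241 to 88957440, percentile 80.0). The Smad3 region was 1 peak of 450 bp (88956481 to 88956930, percentile 14.9), enclosed by it and beginning 11 bp inside the gene. With only touching peaks joined the JMJD3 width was 610 bp, still above that of Smad3. The promoter is shown because it holds the most Smad boxes of the 9 member sequences in the table, from chr4:89311033-89311282 of GRCm38.p6 on the minus strand, marked as above.
Cdkn2b: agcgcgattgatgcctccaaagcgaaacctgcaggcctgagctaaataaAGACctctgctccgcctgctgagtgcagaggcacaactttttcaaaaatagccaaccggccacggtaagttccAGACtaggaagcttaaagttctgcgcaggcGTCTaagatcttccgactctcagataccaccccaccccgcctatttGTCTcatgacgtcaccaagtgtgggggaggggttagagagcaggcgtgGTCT
It held 5 matches to GTCT and 0 to GGCGC, and its G and C share was 53.6%. The mm9 Smad3 peak lies after the start, so these bases are next to that peak and not under it.

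A run of peaks far upstream also named Cdkn2b. Of its 6 Smad3 and 5 JMJD3 peaks, 5 and 3 lay more than 50 kb from the start. At 137784 bp upstream a Smad3 peak of 610 bp met a JMJD3 peak of 690 bp, at 179735 bp peaks of 831 and 980 bp met, and at 195944 bp peaks of 670 and 630 bp. The 2 Smad3 peaks at 70239 and 131785 bp, of 360 and 371 bp, had no JMJD3. All 3 distal JMJD3 peaks therefore overlapped Smad3 peaks. Over the whole lists, 75.2% of JMJD3 peaks more than 50 kb from a start overlapped Smad3, and 60.8% of such Smad3 peaks overlapped JMJD3. Each of the shared Smad3 peaks here was wider than the 450 bp peak at the promoter.

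Cdkn2c (Entrez 12580) encodes p18, an Ink4 inhibitor. At the start listed in the files (chromosome 4, 109337977, minus strand) the Smad3 region was 540 bp (109337671 to 109338210, percentile 24.0) and the JMJD3 region 710 bp (109337761 to 109338470, percentile 30.8), with 450 bp shared. Wider regions lay just upstream, where Smad3 had 1180 bp (109338781 to 109339960) and JMJD3 1200 bp (109338821 to 109340020) with 1140 bp in common. They are centred more than 1 kb from the listed start, with the nearest Smad3 peak at 1019 bp, and so were not counted as promoter regions. In the later GRCm38.p6 table Cdkn2c has a second start 1384 bp upstream of the other. The downstream start there lies 4497 bp from the gene's end, against 4498 bp for the start in the files, so the second start is the one that the files' annotation lacks. The wide regions reached from 2043 to 844 bp upstream of the listed start for JMJD3 and from 1983 to 804 bp for Smad3, a span that holds that distance. The sequences before both starts are shown for that reason, from chr4:109666757-109667006 and chr4:109665373-109665622 of GRCm38.p6 on the minus strand, marked as above.
Cdkn2c upstream start: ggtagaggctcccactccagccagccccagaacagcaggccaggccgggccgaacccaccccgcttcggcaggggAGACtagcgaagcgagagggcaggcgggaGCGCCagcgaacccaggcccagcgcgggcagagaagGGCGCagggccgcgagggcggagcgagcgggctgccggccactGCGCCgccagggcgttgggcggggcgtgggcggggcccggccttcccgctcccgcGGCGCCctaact
Cdkn2c downstream start: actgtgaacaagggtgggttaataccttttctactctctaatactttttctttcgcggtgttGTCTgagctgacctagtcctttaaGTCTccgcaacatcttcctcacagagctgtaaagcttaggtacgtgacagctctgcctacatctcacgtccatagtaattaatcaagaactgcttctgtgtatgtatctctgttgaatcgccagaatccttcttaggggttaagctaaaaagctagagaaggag
The upstream sequence held 5 matches to GGCGC, 3 to GGGCGG and 1 to GTCT with 77.2% G and C. The downstream one held 0, 0 and 2 with 42.8%. Downstream in the gene, a Smad3 peak of 610 bp centred 3931 bp from the start had no JMJD3.

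Cdkn2d (Entrez 12581) encodes p19Ink4d, an inhibitor of CDK4 and CDK6 kept on in postmitotic neurons. Its transcript is placed at 2 positions of chromosome 9 on mm9, 1 on the minus strand (start 21095653) and 1 on the plus strand (start 123836859), and both lists have peaks at each. Only 55 of 18592 transcripts in the files have more than 1 start position. At the first position the JMJD3 region was 1420 bp (21095061 to 21096480, percentile 89.5), the widest of the 7 genes, and enclosed the Smad3 region of 861 bp (21095461 to 21096321, percentile 61.2). At the second the JMJD3 region was 1210 bp (123836091 to 123837300) and enclosed the Smad3 region of 781 bp (123836271 to 123837051).

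The 2 placements carried like patterns beyond the promoter too. About 3 kb from the start the first had regions of 820 bp (Smad3) and 890 bp (JMJD3), which name Kri1, the gene whose start lies 3240 bp away. At a like distance the second had 640 bp and 850 bp. Regions of 440 bp (Smad3) and 740 bp (JMJD3) at about 12 kb were listed at the second placement alone. The later table places Cdkn2d once, on the minus strand. How reads that match both placements were assigned is not given in the sources used here, and their part in the like patterns was not tested. Without the second placement Cdkn2d kept both factors at its promoter.

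**Figure D2:**
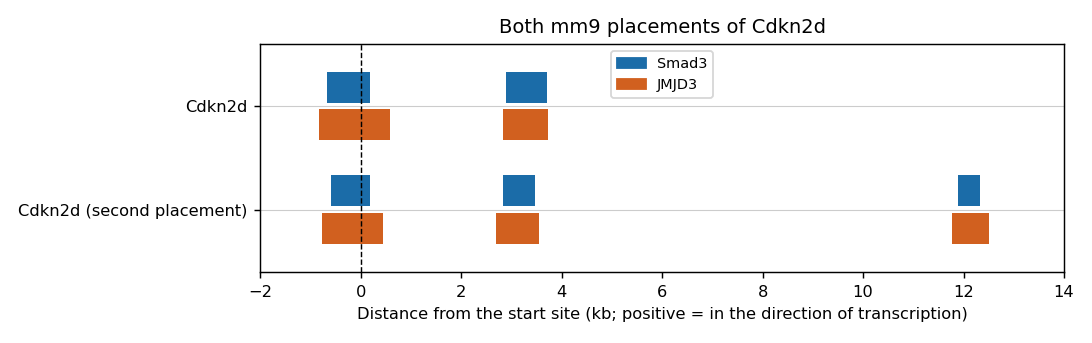
Joined Smad3 (blue) and JMJD3 (orange) regions at both mm9 placements of Cdkn2d, by distance from the start in kb. Both placements have overlapping regions at the start and near 3 kb, and the second has a further pair near 12 kb.

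The relative widths of the JMJD3 and Smad3 regions differed widely among the 7 genes. The ratio of JMJD3 to Smad3 promoter region width was 0.249 at Cdkn1a and 0.427 at Cdkn2a, at percentiles 0.188 and 1.58 of the 8780 genes bound by both. It was 0.859 at Cdkn1b, 1.31 at Cdkn2c and 1.65 at Cdkn2d, where the median gene had 1.07. At Cdkn2b it was 2.67 and at Cdkn1c 5.29, at percentiles 98.6 and 99.9. So 4 of 7 genes lay outside the range from the 5th to the 95th percentile, 2 on each side, where 9.97% of all genes bound by both lie. That count fell to 1 of 7, Cdkn1c, when only touching peaks were joined, and to 3 of 7 when promoter peaks or all peaks within 5 kb were summed. This measure was chosen after the widths were seen. Joining only touching peaks, which splits the 7-peak Cdkn1a region, moved the ratios of Cdkn1a, Cdkn2a and Cdkn2b to 0.81, 0.673 and 1.36 and left that of Cdkn1c at 3.93. It turned the ratios of Cdkn1b and Cdkn2c to 2.0 and 0.65.

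**Figure D3:**
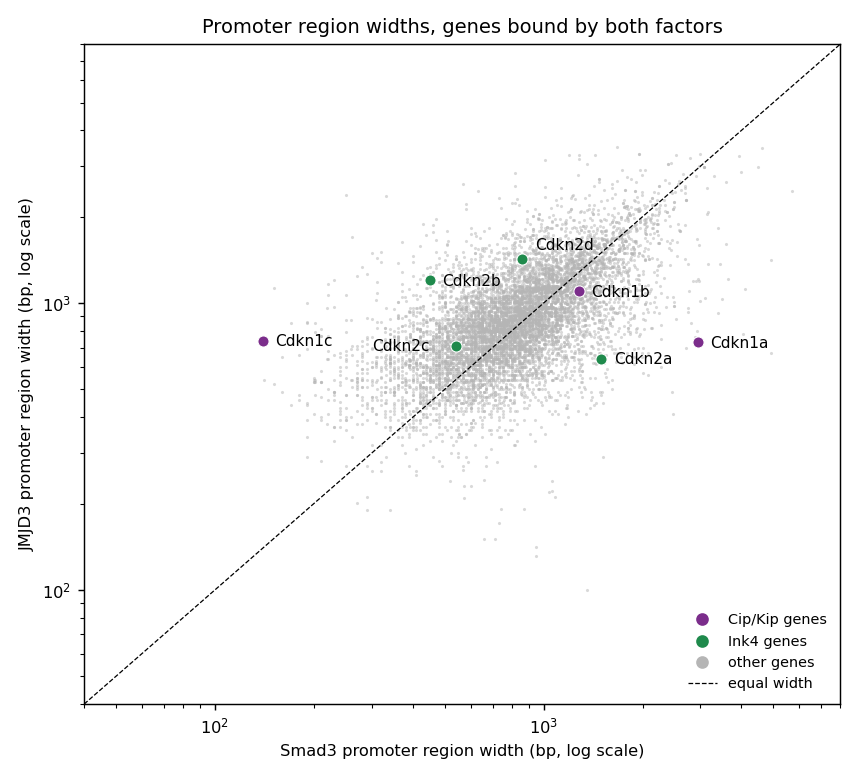
JMJD3 against Smad3 promoter region width in bp, both on log scales, for 8780 coding genes with both factors. Grey points are other genes, coloured points the Cip/Kip and Ink4 genes (Cdkn2d at its first placement), and the dashed line marks equal widths. Cdkn1c (140 and 740 bp) and Cdkn2b lie far above the line, Cdkn1a (2940 and 731 bp) and Cdkn2a far below it.

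The surroundings of the genes differed too. Within 50 kb of the downstream Cdkn1a start lay 36 Smad3 and 15 JMJD3 peaks, at percentiles 98.5 and 94.6 of 16644 coding starts named in the lists, whose medians were 7 and 5. Cdkn1b had 16 and 11 (percentiles 83.0 and 86.8) and Cdkn2d at its first placement 14 and 8 (78.5 and 74.8). Cdkn2c, with 6 and 5, was near the median. Cdkn1c had 4 and 3, and Cdkn2a and Cdkn2b shared 1 set of 4 and 3, at percentiles 26.2 and 33.1. Starts enter this background only if they are closest to some peak, so starts far from any peak are missing from it.

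**Figure D4:**
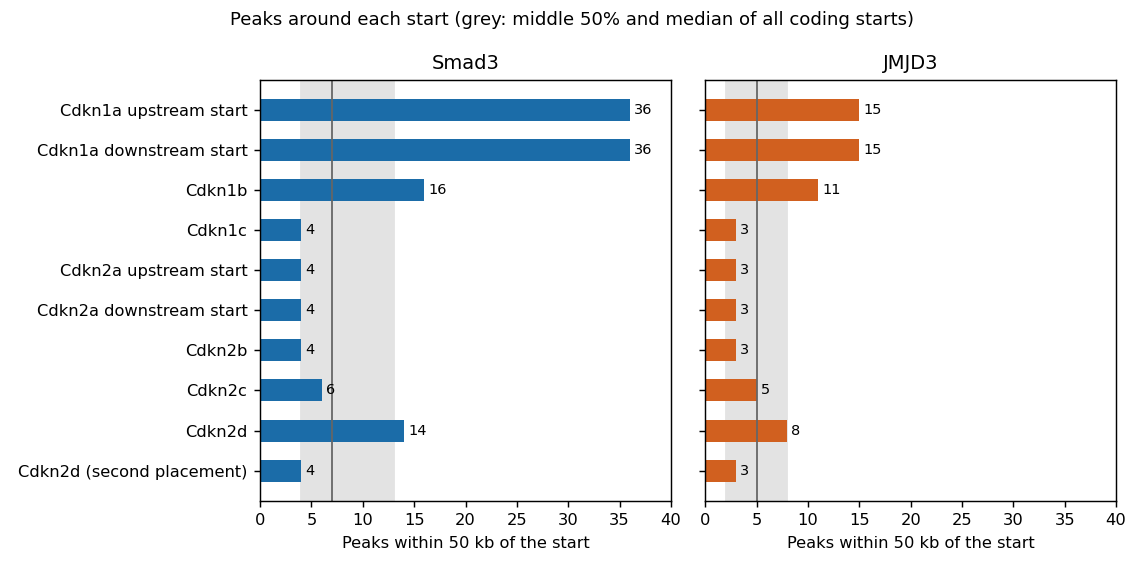
Number of Smad3 (left) and JMJD3 (right) peaks centred within 50 kb of each listed start. The grey band and line are the middle 50% and the median of all coding starts named in the lists. Cdkn1a stands at 36 and 15, above the band, and Cdkn1c, Cdkn2a and Cdkn2b at 4 and 3, at its low end.

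Most of the peaks around Cdkn1a lay upstream, 27 of 36 for Smad3 and 11 of 15 for JMJD3 from the downstream start. The gene that peaks in this window named most often, ahead of Cdkn1a itself, was a non-coding RNA, which the files call LOC100499420. Its transcript accession matches Trp53cor1 in the later RefSeq table, known as lincRNA-p21. In the Cdkn1a window 17 Smad3 and 9 JMJD3 peaks named it, against 10 and 4 that named Cdkn1a. The start of this RNA lies 12024 bp upstream of the upstream Cdkn1a start, on the other strand. At that start Smad3 had a region of 1730 bp (29214811 to 29216540) and JMJD3 one of 1640 bp (29214941 to 29216580), with 1600 bp in common. Smad3 and JMJD3 also met upstream of that Cdkn1a start at about 9 kb, in regions of 880 and 1000 bp. They met at 33 kb too (880 and 770 bp) and at 40 kb (1170 bp each). Between these sites, a JMJD3 region of 660 bp reaching 27949 bp upstream overlapped Smad3 regions of 621 and 750 bp. Of 36 Smad3 peaks in the window 19 overlapped JMJD3, and of 15 JMJD3 peaks 14 overlapped Smad3. Over the whole lists these shares were 60.2% of Smad3 peaks and 81.4% of JMJD3 peaks.

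**Figure D5:**
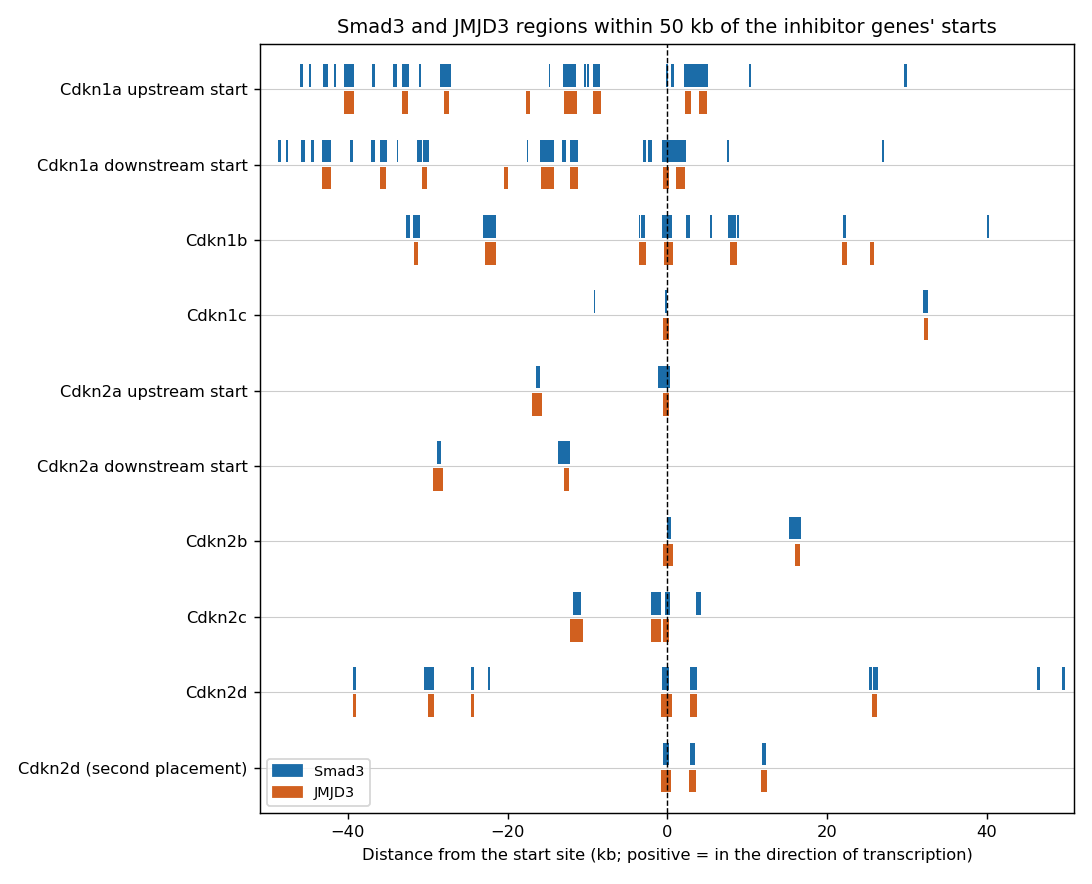
Joined Smad3 (blue) and JMJD3 (orange) regions within 50 kb of each listed start, by distance from the start in kb, positive in the direction of transcription. The upstream side of Cdkn1a is densely filled, with JMJD3 regions mostly under Smad3 regions, while the windows of Cdkn2b and of the upstream (Arf) and downstream (Ink4a) starts of Cdkn2a hold the same 2 pairs of regions.

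Some of the window peaks belonged to other promoters. Of the 47 Smad3 and 23 JMJD3 peaks that named another gene, 17 and 12 were centred within 1 kb of that gene's own start. Near Cdkn2c this was Faf1, whose start lies 11254 bp away, with 1051 bp of Smad3 and 1570 bp of JMJD3. Near Cdkn1b a shared promoter of Gpr19 and 2810454H06Rik had 1640 bp and 1350 bp. Near Cdkn2d peaks lay at the starts of Kri1, Atg4d and Slc44a2, and peaks away from a start named Slc44a2, Ap1m2, Keap1 and S1pr5. Single Smad3 peaks without JMJD3 named Rab44 near Cdkn1a and Apold1 near Cdkn1b, and 8 Smad3 and 2 JMJD3 peaks near Cdkn1a named Srsf3.

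Over all their peaks, the inhibitor genes were like the whole lists in how often the factors met, counting any overlap of at least 1 bp. Of 90 Smad3 peaks 57 overlapped a JMJD3 peak (63.3%, exact Clopper-Pearson 95% interval 52.5 to 73.2), against 60.2% of the whole list. Of 51 JMJD3 peaks 46 overlapped Smad3 (90.2%, 78.6 to 96.7), against 81.4%. Both intervals held the share of the whole list. They cover counting error only and take each peak as separate, though many peaks are neighbouring pieces of 1 joined region. The 84 Smad3 and 48 JMJD3 peaks within 50 kb of a start form 55 and 31 regions. The intervals are therefore likely too narrow. Of 18 Smad3 peaks within 1 kb of a member's start 12 overlapped JMJD3 (66.7%, against 70.9% of all Smad3 peaks within 1 kb of a start). Of 13 JMJD3 peaks there 11 overlapped Smad3 (84.6%, against 93.4%). All these counts include the second mm9 placement of Cdkn2d, whose 4 Smad3 and 3 JMJD3 peaks all overlapped the other factor. Of those, 2 Smad3 peaks and 1 JMJD3 peak lay within 1 kb of the start. The JMJD3 promoter peaks without Smad3 were 1 each at Cdkn1c and Cdkn2d, both just inside the gene and joined to a peak that did overlap.

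Genes that the inhibitors act on or with were bound widely as well. Of 27 G1/S genes, which encode cyclins, CDKs, the Rb family, E2F factors and their partners, Smad3 was listed at 25 and JMJD3 at 20, all 20 with Smad3. Over all coding genes the shares were 55.0% for Smad3, 43.3% for JMJD3 and 41.9% for both. The median regions were 1051 bp and 1180.5 bp. E2f1, a factor that drives S phase genes, had 2411 bp of Smad3 and 2630 bp of JMJD3. Ccnd1, encoding the cyclin D1 that partners CDK4, had 2921 and 1670 bp, and Cks1b, a CDK subunit needed for p27 destruction, 1900 and 1651 bp. The Ink4 targets differed from each other, with 1430 and 1040 bp at Cdk4 and 231 bp of Smad3 without JMJD3 at Cdk6. Ccna1, E2f6, Rbl1 and Skp2 also had Smad3 alone, and Rb1 and Tfdp1 had neither.

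Of 30 genes that regulate the Ink4/Arf locus or carry TGF-beta cytostasis, Smad3 was listed at 29, JMJD3 at 27 and both at 26. Id1, whose protein restrains p16 induction, had regions of 5680 bp (Smad3) and 2451 bp (JMJD3), Smad3 itself 1770 and 2180 bp, and Cbx8, a Polycomb subunit, 1751 and 1560 bp. Foxo4, Kdm6b and Zbtb17 had Smad3 alone, with 420, 440 and 440 bp, and Tbx3 had JMJD3 alone, with 570 bp. Zbtb17 encodes Miz1, the factor through which Myc represses Cdkn2b, and Myc itself had 1941 and 1250 bp. Both lists stand beside the same shares of all coding genes as above (55.0%, 43.3% and 41.9%), and the earlier results of these data were known when they were drawn up.

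The genes most like each inhibitor were sought over 4 values, the promoter region width and the number of peaks within 50 kb for each factor. Closest to Cdkn1a was Actg1, with 2890 and 760 bp and 36 and 15 peaks (distance 0.105 in units of standard deviation), then Camk2n1. Cdkn1b was closest to Bicd2 and Ppm1g, Cdkn2c to Padi2 and Zfp984, and Cdkn2d to Ip6k1 and Ppp2r1b, with distances from 0.172 to 0.257. Cdkn2b was closest to Lig1 and Zswim9 (0.343 each), which give the same values. The nearest genes of Cdkn2a, Sec24d and Tmem263 (0.563 each), and of Cdkn1c, Wnt9a and Utp14b (0.634 and 0.741), lay farther off. Wnt9a paired a Smad3 region of 160 bp with 650 bp of JMJD3, a likeness to Cdkn1c that follows from how it was picked.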

How the data were processed

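Peak lists of 1 Smad3 and 1 JMJD3 ChIP-seq library were used as the authors deposited them. Per the submitters' processing notes, CASAVA, Bowtie 0.12.7, MACS 1.4 and the build mm9 were used; which step each carried out, the thresholds and any use of input: not given in the sources used here. Per the file headers, each row holds a peak's position, the closest RefSeq transcript and the distance from its TSS. No read number is given, so the depth is unknown. Peaks at most 10 bp apart were joined into regions (Python 3.11.15, pandas 2.3.3). Of joined Smad3 neighbours 98.6%, and of JMJD3 99.4%, are exactly 9 bp apart. A percentile is the share of genes with a lower value, counting ties at 50%. The gene background and promoter sequences came from RefSeq on GRCm38.p6, matched on Entrez ID and symbol, with mm9 coordinates taken from the files alone; 6 of 7 members had promoter sequences, 9 in all, and Cdkn1c had none in the table. Also searched, on both strands, were CAGAC (which holds AGAC), the E-box CANNTG, the TATA box TATAAA and the E2F motif, present in 42.2%, 66.2%, 12.4% and 3.14% of promoters. TATAAA and E2F had 0 matches in the 9 sequences.

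The members and lists were chosen with earlier results of these data known. All 7 members are named; from the G1/S and Ink4/Arf lists, the 3 bound by both factors that ranked first by the lower of their 2 width percentiles, and all bound by neither, and for each member its 2 nearest named coding genes. Other genes named were chosen after their values were seen. No test was run, since nothing was replicated; joining, overlap and window counts were tested on simulated peaks.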

Additional observations from a re-analysis of the deposited data

How the results depend on the processing

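Of 104 values recomputed under an alternative, 76 stayed within 1.5 times the reported value or, for shares, within its 95% interval. Promoter windows of 2.5 and 5 kb, and counting peaks whatever gene they name, can only add to the 7 genes with both factors and test nothing. These settings gave 9, 9 and 3 of the 76 values. Joining peaks up to 100 bp apart kept 23 of 23, and joining only touching peaks kept 11 of 23. Keeping the wider 50% of peaks left 4 genes with Smad3, 3 with JMJD3 and 2 with both. The shares of all coding genes under that setting were 39.8%, 28.1% and 25.1%. The 84 Smad3 peaks within 50 kb of a start became 53 within 25 kb, 131 within 100 kb, 49 among the wider 50% and 55 as joined regions. For JMJD3, 48 became 81 within 100 kb, 29 among the wider 50% and 31 as regions. Overlap fell from 63.3% to 38.9% of Smad3 peaks with a reciprocal overlap of 50% and to 45.6% with midpoints within 200 bp, and from 90.2% to 68.6% and 78.4% of JMJD3 peaks. The shares of the whole lists under these rules are not given here, so the likeness to them stands for the 1 bp rule alone. Joining only touching peaks lowered the median Smad3 region from 861 to 541 bp, the Smad3 width at Cdkn2d likewise, and the JMJD3 width at Cdkn2c from 710 to 351 bp. The JMJD3 to Smad3 width ratio, an addition made after the data were seen, crossed 1 at Cdkn1b (2.0) and Cdkn2c (0.65) with touching peaks, and at Cdkn2c (0.819) with all peaks within 5 kb summed. Those sums gave 0.481 at Cdkn1a, 0.432 at Cdkn2a, 2.65 at Cdkn2b and 5.22 at Cdkn1c. No paired analysis was possible because there was 1 library per antibody. The files hold no height or read number, so the strength of a peak could not be set beside its width.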

Other observations

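Other genes with a related name but another role carried both factors at their promoters, as did 41.9% of all coding genes. Cdkn3, which encodes a phosphatase of CDKs, had a Smad3 promoter region 810 bp wide, and the JMJD3 region there was 731 bp. Cdkn2aip, whose protein binds Arf, had 1170 and 1150 bp, and Cdkn2aipnl, a relative of it, 550 and 361 bp. The last JMJD3 width was at percentile 1.45 of JMJD3-bound genes. These 3 genes were chosen after the data were seen.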
